A study of Homo sapiens with 18 samples.

Results

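The expression of 10 genes of the Notch pathway was followed in LNCaP, a human prostate cancer cell line labelled wild type. They are the receptors NOTCH1, NOTCH2 and NOTCH3, the ligands JAG1, JAG2, DLL1 and DLL4, and the target genes HES1, HES4 and HEY1. These 10 genes were taken by symbol from the 28100 genes of the count table, with 1 transcript, that of the highest total, standing for each gene. All cells were exposed for 48 h to one of 6 media, and polyadenylated RNA was sequenced from 3 libraries per medium. The first group received medium conditioned by M1-polarised THP-1 macrophages with IKK16 at 0.7 μmol/l, an inhibitor of the kinases that activate NF-kB. The second received the same M1 medium with an equal amount of DMSO, the solvent. The next 3 received medium of M1, M2 or unpolarised M0 THP-1 macrophages with no addition. The control received RPMI with 10% heat-inactivated serum, the medium in which the conditioned media were diluted 1:4. THP-1 is a monocytic leukaemia line, so the macrophages are a cell line model, and the M1 and M2 states are known here by their labels. The control held no DMSO, and no group received IKK16 without M1 medium.

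Notch receptors sit on the cell surface and are activated by Jagged or Delta-like ligands on a neighbouring cell. Activation lets an ADAM protease and then gamma-secretase cut the receptor, and the freed intracellular part joins the DNA-binding protein RBPJ and Mastermind proteins in the nucleus. The HES and HEY genes are classical targets of that complex and encode transcriptional repressors, several of which recruit TLE corepressors. In the prostate the pathway is known for its part in the balance of basal and luminal cells.

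The promoters of HES1 and HES4 are shown because both genes encode repressors of the same family, while their RNA moved in opposite directions in M1 medium, as described further on. Both stretches are 74 bases long and come from RefSeq, build GRCh38.p14. They lie upstream of the annotated start used for each gene and end short of it, so the bases next to that start are not printed. HES1 lies at chr3:194136028-194136101 on the plus strand and HES4 at chr1:1000144-1000217 on the minus strand. Capitals mark GTGGGAA, the letters of the core motif that RBPJ binds.
HES1: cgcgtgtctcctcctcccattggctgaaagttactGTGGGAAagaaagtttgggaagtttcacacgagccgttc
HES4: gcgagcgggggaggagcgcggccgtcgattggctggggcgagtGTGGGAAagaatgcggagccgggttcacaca
The motif begins 85 bases before the start of HES1 and 77 bases before that of HES4. Each distance is counted from a single annotated start. HES4 has another, longer annotated start, and the distance from it was not measured. The longest stretch that the printed sequences share is TGTGGGAAAGAA, 12 bases that include the motif. The promoter table held 8 of the 10 genes, and DLL1 and HEY1 had no entry. In the 250 bases upstream of the start, on both strands, GTGGGAA was found in HES1 and HES4 and in none of the other 6, and it occurs in 5.46% of all 27305 promoters of that length. CACNAG, the N-box that HES proteins bind, was found at 3 places in HES1 and at 1 in NOTCH3, against 32% of all promoters with at least 1 match. One form of the NF-kB site, GGG followed by any 2 bases and TTTCC, stood in none of the 8 windows and in 1.73% of all promoters. Other forms of that site and bases outside the windows were not searched. No N-box match overlapped the GTGGGAA match in HES1. A match describes the letters only.

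In untreated LNCaP cells the strongest of the 10 genes per length was HES4, at 87.2 ± 16.3 CPM per kb, counts scaled to library size and divided by transcript length (SD, n = 3). JAG2 followed at 21.4 ± 1.09 CPM per kb. NOTCH3 stood at 8.57 ± 0.544 and JAG1 at 7.99 ± 0.670 CPM per kb, a difference within their spread, and the same held for NOTCH1 at 3.89 ± 0.278 and NOTCH2 at 3.84 ± 0.565 CPM per kb. HES1 at 3.04 and DLL1 at 1.67 CPM per kb came next. HEY1 at 0.553 and DLL4 at 0.0711 CPM per kb were the lowest. In M1 medium HES4 was still first at 31.8 CPM per kb and JAG2 second at 12.1 CPM per kb, and NOTCH1 at 6.10 ± 0.942 CPM per kb stood above JAG1 at 5.35 ± 0.154 CPM per kb, within its spread. Levels given further on are CPM scaled by edgeR's TMM method and are compared within a gene only.

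**Figure D1:**
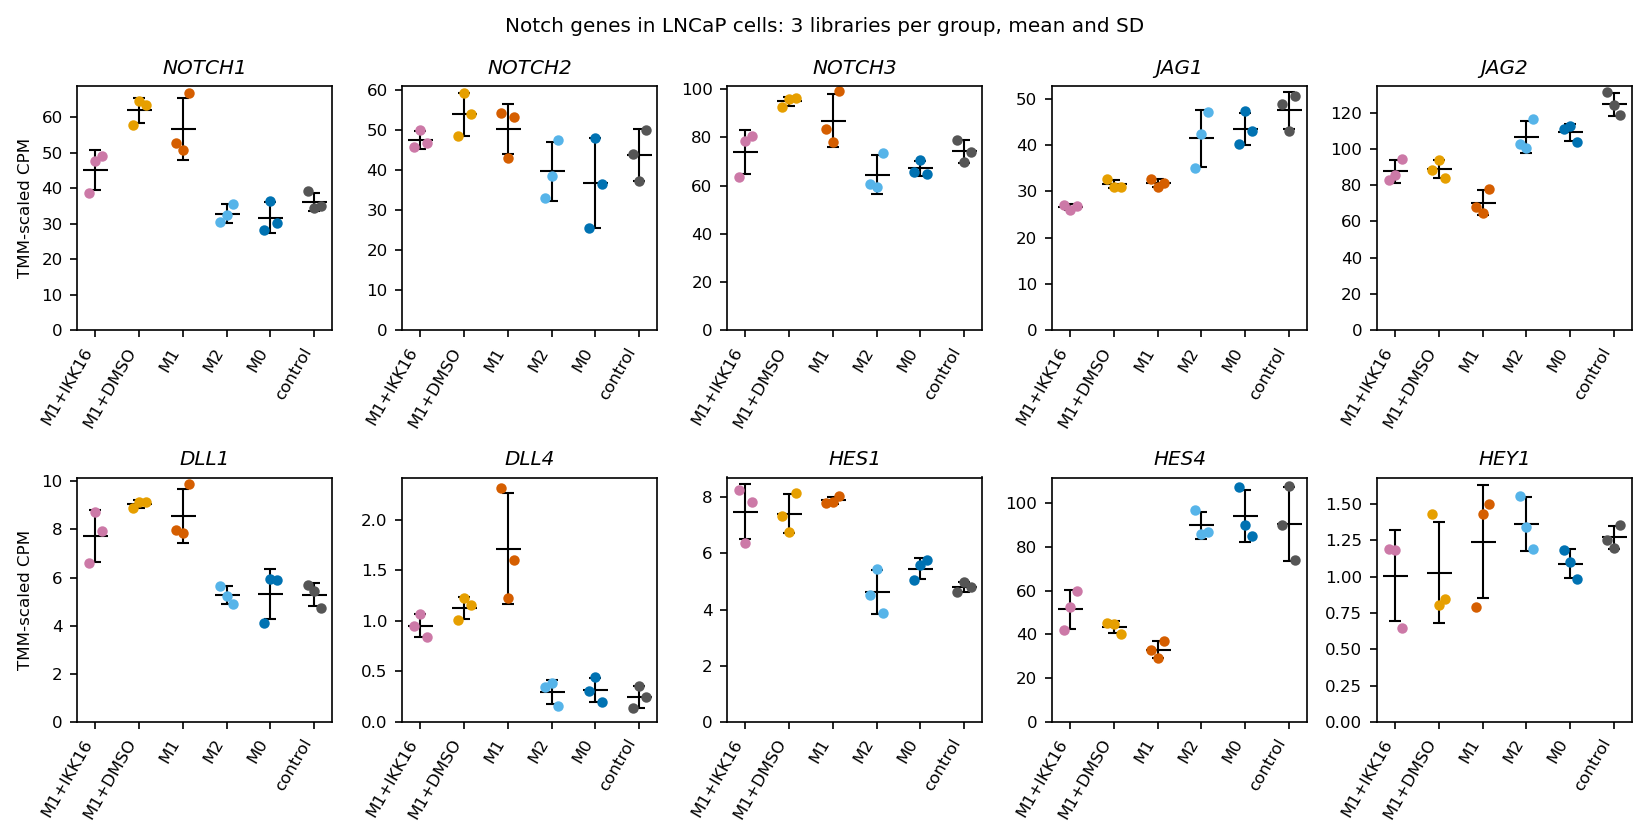
TMM-scaled CPM of each of the 10 genes (y axis, linear, from 0, one panel per gene) in the 6 media (x axis); points are libraries and bars are the mean ± SD of 3. NOTCH1, DLL1, DLL4 and HES1 stand higher, and JAG1, JAG2 and HES4 lower, in the M1 medium libraries than in the control libraries.

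M1 medium against control asks how the pathway differs in M1 medium. The control was unconditioned, so this comparison does not separate products of M1 macrophages from conditioning as such or from anything else carried over. Of the 10 genes, 5 rose and 3 fell in M1 medium (edgeR adjusted p under 0.05). Among all 17037 genes tested 32.9% rose and 31.9% fell, so a change was common in the table as a whole, and the counts show nothing particular to Notch. The receptors NOTCH1 and NOTCH3, the Delta-like ligands DLL1 and DLL4, and the target HES1 rose. The Jagged ligands JAG1 and JAG2 and the target HES4 fell. NOTCH2 and HEY1 did not pass. The libraries of M1 medium and control did not overlap for 7 of the 10 genes, beside 66.2% of all genes. The median log2 fold change was 0.21 over the 10 genes and -0.001 over all genes. In bulk RNA, fewer cells that express a gene and less RNA per cell cannot be told apart. Nothing in the labels tells whether the 3 libraries of a group came from separate cultures, so the p-values reflect the spread among these libraries alone, and that spread may be technical.

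NOTCH1 (chromosome 9, 136494433 to 136546048, minus strand, RefSeq positions on GRCh38.p14 here and for the genes that follow) encodes a receptor found in most tissues. Its libraries held 52.9, 50.6 and 66.8 CPM in M1 medium, against 39.1, 34.3 and 35.1 CPM in control. All 3 M1 libraries stood above all 3 control libraries. The log2 fold change was 0.65 ± 0.10 (SE, edgeR adjusted p = 9.96e-06).

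NOTCH3 (chromosome 19, 15159038 to 15200995, minus strand), a receptor best known from vascular smooth muscle, changed less. It had 83.4, 78.1 and 99.2 CPM in M1 medium, against 79.0, 69.6 and 74.1 CPM in control. The lowest M1 library lay below the highest control library. The log2 fold change of 0.23 ± 0.09 (edgeR adjusted p = 0.0325) depended on single libraries. The edgeR adjusted p was 0.274 without M1 replicate 3, 0.113 without control replicate 2 and 0.0564 without control replicate 3. It was also lost when a trend of the fold change with transcript length was removed (0.13, edgeR adjusted p = 0.141).

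NOTCH2 (chromosome 1, 119911553 to 120069662, minus strand) is the third receptor. It had 54.4, 43.1 and 53.4 CPM in M1 medium, against 44.0, 37.2 and 50.1 CPM in control, with overlapping groups (log2 fold change 0.20 ± 0.15, edgeR adjusted p = 0.261). The genes NOTCH2NLA, NOTCH2NLB and NOTCH2NLC, which share part of its sequence, held 283, 174 and 42 counts over the M1 libraries. Over the control libraries they held 400, 242 and 120 counts. How reads that match several places were counted is not given in the sources used here, so the level of NOTCH2 is uncertain.

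Of the ligands, DLL4 (chromosome 15, 40929340 to 40939073, plus strand), a Delta-like ligand known from sprouting blood vessels, had the largest fold change of the 10 genes and the lowest level. It had 2.31, 1.23 and 1.60 CPM in M1 medium, against 0.132, 0.353 and 0.247 CPM in control. These are 158 counts over the M1 libraries and 22 over the control libraries, and the groups did not overlap. The log2 fold change was 2.81 ± 0.34 (edgeR adjusted p = 1.62e-07). DLL4 was at or over the 0.346 CPM of the filter on low counts in all 3 libraries of each group with M1 medium. In the control, M0 and M2 groups this held for 1 of 3 libraries each. Most libraries that met the filter's level thus had M1 medium. Of 5 endothelial marker genes, checked because endothelium is known for DLL4, 1 reached 1 CPM in M1 medium and in control. Their summed level was 7.02 to 12.1 CPM in the M1 libraries and 19.5 to 23.8 CPM in the control libraries, and CDH5 was at 0 in both groups.

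DLL1 (chromosome 6, 170282206 to 170291078, minus strand), the other Delta-like ligand, had 7.98, 7.87 and 9.87 CPM in M1 medium, against 5.67, 5.44 and 4.75 CPM in control. The groups did not overlap, and the log2 fold change was 0.70 ± 0.13 (edgeR adjusted p = 5.89e-05).

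Both Jagged ligands moved the other way. JAG2 (chromosome 14, 105140995 to 105168776, minus strand) had 68.0, 64.8 and 78.1 CPM in M1 medium, against 131.3, 124.4 and 118.6 CPM in control (log2 fold change -0.83 ± 0.07, edgeR adjusted p = 7.62e-10). JAG1 (chromosome 20, 10637684 to 10673999, minus strand), the ligand mutated in Alagille syndrome, had 32.7, 30.8 and 31.8 CPM in M1 medium, against 48.9, 43.0 and 50.6 CPM in control (log2 fold change -0.58 ± 0.08, edgeR adjusted p = 2.49e-06). For both ligands every M1 library lay below every control library. JAG1 shares 79 exonic bases with the antisense gene AL050403.2 and JAG2 shares 469 with AL512356.1 on its own strand in GENCODE 29. Whether counting used strand is not given in the sources used here, so reads in the bases that JAG1 shares cannot be assigned. For JAG2 the shared bases are on the same strand, so strand would not separate those reads.

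The targets split. HES4 (chromosome 1, 998964 to 1000097, minus strand), a HES family repressor present in human and absent from mouse, had 32.9, 29.2 and 37.1 CPM in M1 medium, against 90, 107.9 and 74.1 CPM in control. It was 2.74-fold lower, with no overlap (log2 fold change -1.45 ± 0.13, edgeR adjusted p = 5.31e-10). HES1 (chromosome 3, 194136148 to 194138732, plus strand), the target most often used as a readout of Notch, had 7.79, 7.84 and 8.04 CPM in M1 medium, against 4.62, 4.98 and 4.81 CPM in control. It was 1.64-fold higher, again with no overlap (log2 fold change 0.72 ± 0.12, edgeR adjusted p = 1.35e-05). HEY1, a repressor related to the HES proteins, stood close to 1 CPM in both groups. It had 0.791, 1.43 and 1.504 CPM in M1 medium, against 1.25, 1.20 and 1.36 CPM in control (log2 fold change -0.04 ± 0.26, edgeR adjusted p = 0.902).

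**Figure D2:**
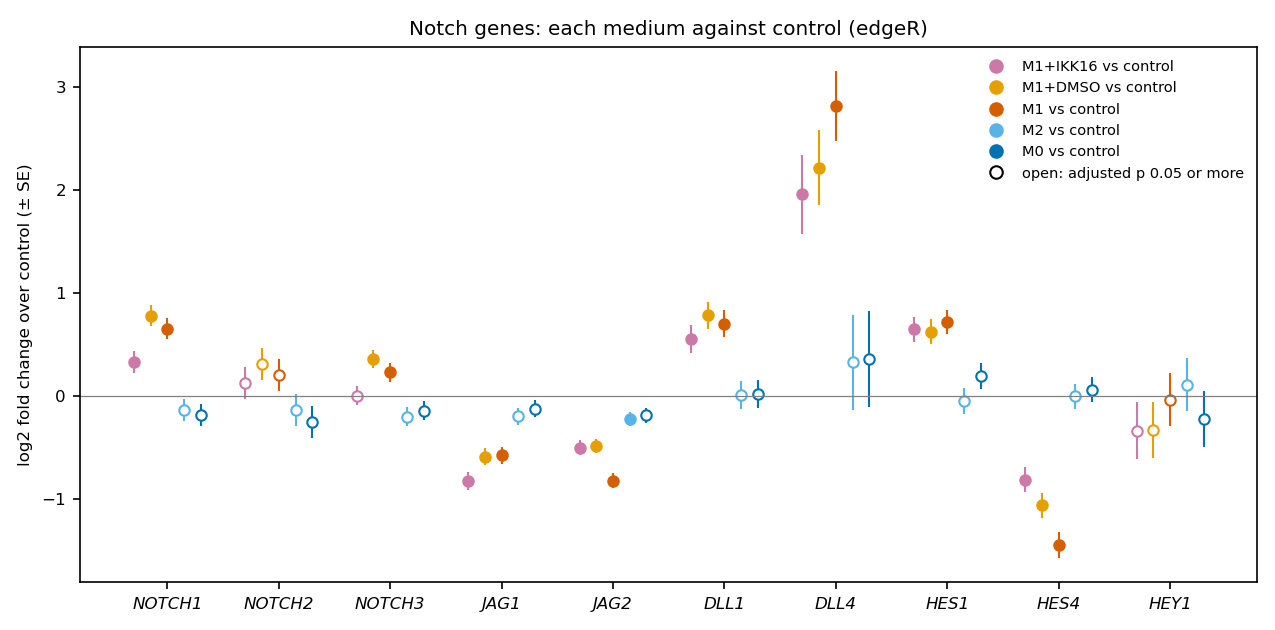
Log2 fold change over control ± SE (y axis) of the 10 genes (x axis) in the 5 conditioned media; open points have an edgeR adjusted p of 0.05 or more. M1 medium with IKK16, with DMSO and alone have filled points for 7, 8 and 8 genes, and M2 and M0 medium for 1 and 0.

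The 3 groups with M1 medium share the control libraries, so their values are set side by side. In M1 medium with DMSO, 5 of the 10 genes rose and 3 fell against control, beside 31.1% and 31.1% of all genes. They were the genes called in M1 medium alone. NOTCH1 averaged 61.9 ± 3.55 CPM with DMSO and 36.2 ± 2.58 CPM in control (SD, n = 3 each). DLL4 averaged 1.13 ± 0.110 CPM with DMSO and 0.244 ± 0.111 CPM in control. The log2 fold changes with DMSO were 0.78 for NOTCH1, 0.35 for NOTCH3, 0.78 for DLL1, 2.21 for DLL4 and 0.62 for HES1, and -0.59 for JAG1, -0.49 for JAG2 and -1.06 for HES4. NOTCH2 (0.30, edgeR adjusted p = 0.0921) and HEY1 (-0.34, edgeR adjusted p = 0.297) did not pass. NOTCH2 passed without control replicate 3 (edgeR adjusted p = 0.0379), without a filter on low counts (0.0209) and with only the 2 groups compared (0.0128).

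M1 medium was also set against the other macrophage media. Against M0 medium 6 genes rose and 3 fell in M1 medium (background 34.2% and 33%), and against M2 medium 5 rose and 3 fell (background 34.3% and 33.2%). NOTCH1 was higher in M1 medium by 0.84 over M0 and 0.79 over M2 on the log2 scale, and DLL4 by 2.45 and 2.49. HES4 had log2 fold changes of -1.51 against M0 and -1.44 against M2 medium, and JAG2 of -0.63 and -0.60. NOTCH2 passed against M0 medium (0.45, edgeR adjusted p = 0.0136) and not against M2 medium (0.34, edgeR adjusted p = 0.0538). Against M2 medium it passed without M1 replicate 2 (edgeR adjusted p = 0.0267), without M2 replicate 3 (0.0135), without a filter on low counts (0.0117), with only the 2 groups compared (0.0185) and with the replicate number as a block (0.037). The call against M0 was lost without M0 replicate 1, the lowest of that group at 25.6 CPM (edgeR adjusted p = 0.116), without M1 replicate 1 (0.0614), without M1 replicate 3 (0.0535) and with the length trend removed (0.0731). NOTCH3 also lost its call against M0 medium with the length trend removed (0.15, edgeR adjusted p = 0.0846).

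Medium of M0 or M2 macrophages left few differences from control that passed. In M0 medium 0 of the 10 genes passed edgeR (background 6.67% higher and 5.04% lower), 1 was lower at an unadjusted p under 0.05, and DESeq2 called 0. Fitted log2 fold changes in M0 medium ran from -0.25 to 0.35. In M2 medium JAG2 alone passed, with 102.7, 100.4 and 116.7 CPM, against 131.3, 124.4 and 118.6 CPM in control (background 5.28% higher and 3.49% lower). It was the 1 gene whose M2 and control libraries did not overlap (22.9% of all genes), but the log2 fold change of -0.23 ± 0.07 was just past the threshold (edgeR adjusted p = 0.0495). That call was lost without any one of the 3 control libraries, without M2 replicate 1 and without M2 replicate 2. M0 medium gave JAG2 a log2 fold change of -0.19 (edgeR adjusted p = 0.0794). Most levels in M2 and M0 medium lay near the control. The receptor NOTCH1 averaged 32.8 ± 2.64 CPM in M2 medium, 31.7 ± 4.32 CPM in M0 medium and 36.2 ± 2.58 CPM in control (SD, n = 3 each). NOTCH2 averaged 39.8 ± 7.35 CPM in M2 medium, 36.7 ± 11.2 CPM in M0 medium and 43.8 ± 6.43 CPM in control. NOTCH3 averaged 64.6 ± 7.93 CPM in M2 medium, 67.1 ± 3.22 CPM in M0 medium and 74.2 ± 4.71 CPM in control. All 3 receptor means were lower than the control mean, by differences that did not pass. Single libraries mattered here: NOTCH2 was called lower in M0 medium without M0 replicate 2 (log2 fold change -0.48), NOTCH3 and JAG1 lower in M2 medium without M2 replicate 3 (-0.30 and -0.29), and JAG1 lower in M2 medium without control replicate 2 (-0.27). The ligand JAG1 averaged 41.5 ± 6.09 CPM in M2 medium, 43.5 ± 3.54 CPM in M0 medium and 47.5 ± 3.98 CPM in control. DLL1 averaged 5.27 ± 0.373 CPM in M2 medium, 5.32 ± 1.04 CPM in M0 medium and 5.29 ± 0.479 CPM in control. DLL4, with 27 counts over the M2 libraries, 26 over the M0 libraries and 22 over the control libraries, was near the level of the filter in all 3. The target HES4 averaged 90 ± 6.21 CPM in M2 medium, 94.3 ± 11.8 CPM in M0 medium and 90.7 ± 16.9 CPM in control. HES1 averaged 4.61 ± 0.783 CPM in M2 medium, 5.46 ± 0.378 CPM in M0 medium and 4.80 ± 0.179 CPM in control. HEY1 averaged 1.36 ± 0.184 CPM in M2 medium, 1.09 ± 0.101 CPM in M0 medium and 1.27 ± 0.0803 CPM in control, so that none of the 3 targets had a call in either medium. Between M2 and M0 medium 0 of the 10 genes passed edgeR, 0 had an unadjusted p under 0.05 and DESeq2 called 0, beside 0% of all genes higher and 0.106% lower.

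IKK16 against DMSO, both in M1 medium, asks which of these levels differ with the compound. Of 5 NF-kB target genes, 3 were lower and 1 was higher with IKK16. Their summed level was 1054 to 1074 CPM with IKK16 and 1044 to 1068 CPM with DMSO. No group received IKK16 without M1 medium, and dependence on IκB kinase activity itself was not tested. With IKK16, 3 of the 10 genes were lower and 0 higher than with DMSO (edgeR, background 12.9% lower and 14.4% higher). At an unadjusted p under 0.05, and by DESeq2, the counts were also 3 and 0. The 3 genes are the receptors NOTCH1 and NOTCH3 and the ligand JAG1. They and DLL1 are the 4 genes whose IKK16 and DMSO libraries did not overlap, beside 44.5% of all genes. The median log2 fold change was -0.21 over the 10 genes and 0.01 over all genes.

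NOTCH1 had 38.8, 47.7 and 49.2 CPM with IKK16, against 57.9, 64.6 and 63.4 CPM with DMSO. It was 1.37-fold lower with no overlap (log2 fold change -0.46 ± 0.10, edgeR adjusted p = 0.0022). NOTCH3 had 63.7, 78.3 and 80.4 CPM with IKK16, against 92.8, 95.7 and 96.3 CPM with DMSO. It was 1.28-fold lower, also with no overlap (log2 fold change -0.36 ± 0.09, edgeR adjusted p = 0.00517). The receptor calls held in all 14 alternatives for this comparison, with edgeR or DESeq2 adjusted p up to 0.022 for NOTCH1 and 0.0462 for NOTCH3.

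JAG1, lower in M1 medium than in control already, was lower still with IKK16. It had 27.1, 25.9 and 26.9 CPM with IKK16, against 32.6, 31.0 and 31.0 CPM with DMSO (log2 fold change -0.24 ± 0.09, edgeR adjusted p = 0.0466). The groups did not overlap, yet the call was lost without any one of the 6 libraries (edgeR adjusted p 0.0731 to 0.126). DLL1 had 6.58, 8.71 and 7.92 CPM with IKK16, against 8.88, 9.15 and 9.15 CPM with DMSO. These groups did not overlap either, but the test was not passed, with a log2 fold change of -0.23 ± 0.13 (edgeR adjusted p = 0.197).

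The targets showed no call between IKK16 and DMSO. HES1 had 8.25, 6.38 and 7.84 CPM with IKK16, against 7.32, 6.76 and 8.15 CPM with DMSO (log2 fold change 0.02 ± 0.12, edgeR adjusted p = 0.918). HES4 had 42.0, 52.7 and 59.7 CPM with IKK16, against 45.0, 44.8 and 40.1 CPM with DMSO, where the lowest IKK16 library lay among the DMSO libraries (log2 fold change 0.25 ± 0.13, edgeR adjusted p = 0.151). HES4 passed without that library, IKK16 replicate 1 (edgeR adjusted p = 0.039), and when only the 2 groups compared were fitted (edgeR adjusted p = 0.0452). DLL4 had 0.952, 1.06 and 0.838 CPM with IKK16, against 1.01, 1.23 and 1.15 CPM with DMSO, 72 and 95 counts over the groups, with overlap (log2 fold change -0.26 ± 0.29, edgeR adjusted p = 0.562). JAG2 (-0.02 ± 0.07), HEY1 (-0.01 ± 0.30) and NOTCH2 (-0.18 ± 0.16) had log2 fold changes that did not pass, although NOTCH2 did with only the 2 groups compared (edgeR adjusted p = 0.0337).

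**Figure D3:**
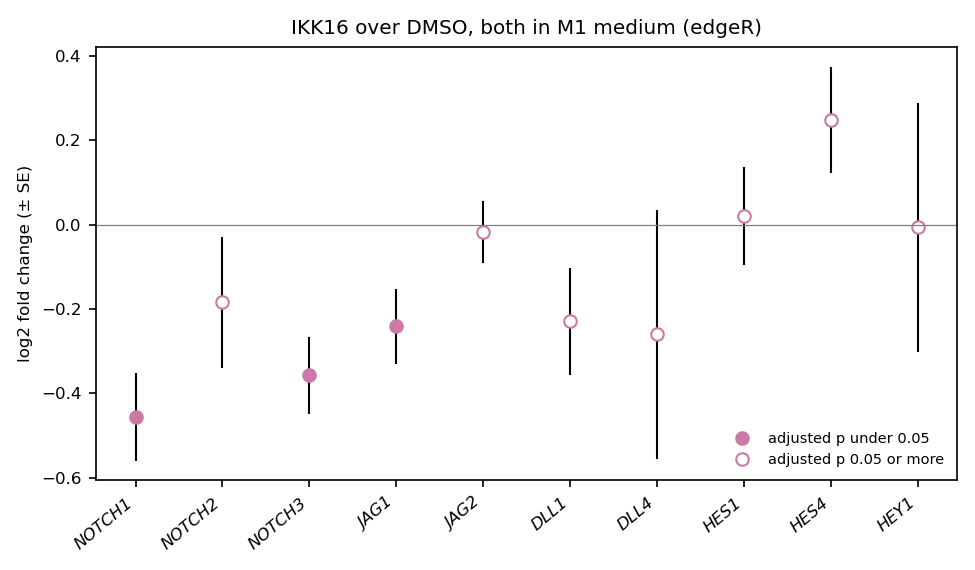
Log2 fold change ± SE (y axis) of the 10 genes (x axis) with IKK16 over DMSO, both in M1 medium; filled points have an edgeR adjusted p under 0.05. NOTCH1 at -0.46, NOTCH3 at -0.36 and JAG1 at -0.24 are the filled points.

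M1 medium with IKK16 still differed from control, beside a background of 27.1% of genes higher and 25.4% lower. NOTCH1 (0.32), DLL1 (0.55), DLL4 (1.95) and HES1 (0.64) were higher on the log2 scale, and JAG1 (-0.83), JAG2 (-0.51) and HES4 (-0.82) were lower. NOTCH3 averaged 74.1 ± 9.13 CPM with IKK16 and 74.2 ± 4.71 CPM in control (SD, n = 3 each), a log2 fold change of -0.00 ± 0.09 (edgeR adjusted p = 0.985). The NOTCH1 call was lost without IKK16 replicate 2 (edgeR adjusted p = 0.0563) or replicate 3 (0.0763).

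DMSO itself was checked against M1 medium alone. JAG2 was higher with DMSO, at 88.2, 94.0 and 84.0 CPM, against 68.0, 64.8 and 78.1 CPM without it (log2 fold change 0.34 ± 0.07, edgeR adjusted p = 0.0133, background 2.22% higher and 2.03% lower). The groups did not overlap for 3 of the 10 genes, JAG2, HES4 and DLL4 (29.3% of all genes). The call was lost without M1 replicate 1 or 2 or DMSO replicate 1 or 2 (edgeR adjusted p 0.0544 to 0.114). HES4 (0.39, edgeR adjusted p = 0.0803) and DLL4 (-0.59, edgeR adjusted p = 0.189) did not pass. HES4 passed without M1 replicate 3 (edgeR adjusted p = 0.0361), without a filter on low counts (0.0141), with the length trend removed (0.0331) and with only the 2 groups compared (0.00542).

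The rest of the pathway was described from a list of 50 other genes, of which 49 were in the table and 41 passed the filter. In M1 medium 16 of the 41 rose and 13 fell against control, with a median log2 fold change of 0.14, beside the background of 32.9% and 31.9%. Of the 9 proteases and gamma-secretase subunits, 7 rose and 1 fell. ADAM17 and ADAM10, the sheddases that make the first cut in the receptor, rose to 51.6 and 237.1 CPM in M1 medium, against 24.4 and 127 CPM in control (log2 fold changes 1.08 ± 0.06 and 0.90 ± 0.07). PSEN2, a catalytic subunit of gamma-secretase, fell by 0.23 on the log2 scale.

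Of 10 genes of the nuclear complex 3 rose and 6 fell in M1 medium against control (background 32.9% higher and 31.9% lower). TLE1, a corepressor that HES proteins recruit, rose 7.23-fold to 202.8 CPM in M1 medium, against 28.0 CPM in control (log2 fold change 2.85 ± 0.06, edgeR adjusted p = 1.14e-21). The acetyltransferase KAT2B fell to 11.99 CPM, against 26.0 CPM in control (-1.12 ± 0.09). RBPJ, the DNA-binding partner of the Notch intracellular part, fell to 58.5 CPM, against 68.8 CPM in control (log2 fold change -0.24 ± 0.07, edgeR adjusted p = 0.0033). RBPJ was added to the named genes after its values had been seen.

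Of the 3 other HES and HEY family and feedback genes tested 2 fell and 0 rose. The background for this and the next counts was 32.9% higher and 31.9% lower. HES6, a family member that is not activated by Notch in mouse neural development and that opposes HES1 there, fell 9.94-fold to 17.5 ± 2.47 CPM in M1 medium, against 173.9 ± 31.5 CPM in control (SD, n = 3 each, edgeR adjusted p = 1.53e-16). NRARP, a feedback inhibitor that Notch induces, fell to 35.6 CPM, against 50.9 CPM in control (log2 fold change -0.51 ± 0.07). Of 12 genes of endocytosis and ubiquitin transfer 4 rose and 2 fell. DTX3L, a Deltex family ubiquitin ligase also known as an interferon-response gene, rose to 114.1 CPM, against 36.6 CPM in control, and MIB1, the ligase that ligands need for endocytosis, rose by a log2 fold change of 0.56. Of 4 glycosyltransferases tested LFNG, which alters how a receptor answers Jagged and Delta-like ligands, rose (log2 fold change 1.05 ± 0.18) and POFUT1, which adds fucose to the receptor, fell (-0.30 ± 0.05). Of the remaining receptor and atypical ligands DLK2 rose to 2.36 CPM, against 1.25 CPM in control, and DLL3, a ligand that inhibits Notch from within the cell, fell to 6.40 CPM, against 12.3 CPM in control.

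**Figure D4:**
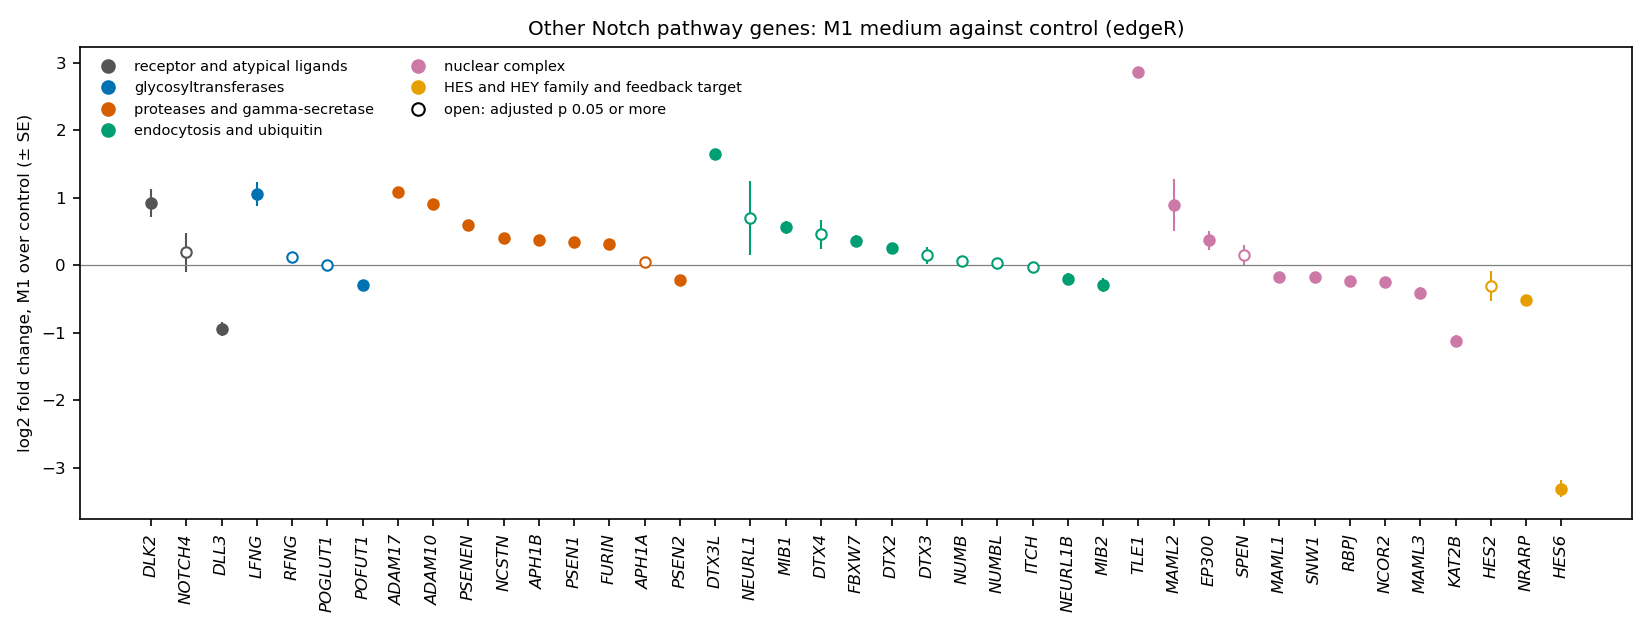
Log2 fold change ± SE (y axis) in M1 medium over control of the 41 other Notch pathway genes tested (x axis), coloured by role; open points have an edgeR adjusted p of 0.05 or more. TLE1 at 2.85 and HES6 at -3.31 lie farthest from 0.

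With IKK16, 4 of the 41 rose and 9 fell against DMSO (median log2 fold change -0.07, background 14.4% and 12.9%). TLE1 fell to 114.3 ± 2.16 CPM with IKK16, against 200.5 ± 7.77 CPM with DMSO (log2 fold change -0.81 ± 0.05, edgeR adjusted p = 7.61e-11). DTX4, a Deltex family ubiquitin ligase, fell to 1.56 CPM with IKK16, against 3.43 CPM with DMSO (-1.12 ± 0.25). RBPJ rose to 63.7 CPM with IKK16, against 53.4 CPM with DMSO (0.25 ± 0.07), and NRARP rose to 47.7 CPM, against 40.8 CPM with DMSO (0.22 ± 0.07). Of the 9 proteases and gamma-secretase subunits 3 were lower with IKK16 and 0 higher, among them the subunits PSENEN (-0.23 ± 0.07) and PSEN2 (-0.23 ± 0.07). ADAM10 (-0.02 ± 0.07), ADAM17 (-0.07 ± 0.06) and HES6 (0.18 ± 0.13) did not pass. In M0 medium 1 of the 41 rose against control, the glycosyltransferase POGLUT1, and 2 fell, FURIN, which processes the receptor, and MAML1, a Mastermind coactivator (background 6.67% higher and 5.04% lower). In M2 medium 0 rose and 2 fell, FURIN and the gamma-secretase subunit NCSTN (background 5.28% higher and 3.49% lower). The calls among these genes were 0 in both media when only the 2 groups compared were fitted and without control replicate 1. They were also 0 in M0 medium without M0 replicate 1, and 0 in M2 medium without M2 replicate 1 or 2. They were 1 in both media without control replicate 3 and 1 in M0 medium without M0 replicate 3. They were 5 in M0 medium and 4 in M2 medium without control replicate 2, 6 in M0 medium without M0 replicate 2 and 6 in M2 medium without M2 replicate 3.

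Across the 18 libraries NOTCH1 correlated with NOTCH3 at r = 0.928 and with DLL1 at r = 0.932, and JAG2 with HES4 at r = 0.914 (Pearson, log2 CPM). The libraries share their groups, so these values include the differences between groups, and the part of differences within groups was not tested. For NOTCH3 the groups did not simply split into M1 medium and the other media. It averaged 74.1 CPM in M1 medium with IKK16 and 74.2 CPM in control. Among 12667 genes compared, the closest patterns were LAMA5 (0.985), PLEC (0.980) and ZNF629 (0.978) for NOTCH1. They were EXOC1 (0.962), IMMP2L (0.962) and ZNF117 (0.961) for DLL4, and SLC2A4RG (0.994), METTL26 (0.992) and MLST8 (0.991) for HES4.

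All 9 LNCaP marker genes used, KLK3 and KLK2 among them, were at 1 CPM or more in every group, but their summed level was 3825 to 3876 CPM with IKK16, 3190.4 to 3247 CPM with DMSO, 3069 to 3135 CPM in M1 medium and 8246 to 8587 CPM in control. Of the 9 genes, 5 fell and 3 rose in M1 medium against control (edgeR, background 31.9% lower and 32.9% higher). KLK3, the gene of prostate-specific antigen, made up most of the fall in the sum, at 154.2 CPM in M1 medium and 3714 CPM in control. TMPRSS2, KLK2, HOXB13 and SLC45A3 fell as well. FOLH1 (log2 fold change 0.26), KRT8 (0.49) and STEAP2 (0.24) rose, and KRT18 did not pass (-0.02). The part of these changes in the Notch results was not tested. Of 12 macrophage marker genes 4 reached 1 CPM in M1 medium and 2 in control. Their summed level was 244.9 to 264.6 CPM in M1 medium and 227.8 to 232 CPM in control, and TYROBP was at 0 in all 6 groups. Most of that sum was CSF1R, which averaged 195.5 CPM in M1 medium and 223.5 CPM in control. Of the 5 macrophage genes tested 3 rose in M1 medium, CD68, ITGAM and LYZ, and 2 fell, CSF1R (log2 fold change -0.19) and SPI1 (-1.95). PTPRC was at 0 in M1 medium. CD68 averaged 36.9 CPM in M1 medium and 4.93 CPM in control, and ITGAM 19.96 CPM in M1 medium and 0.149 CPM in control. The 5 NF-kB target genes listed, a check of the labels, summed to 1054 to 1074 CPM with IKK16, 1044 to 1068 CPM with DMSO, 1097 to 1102 CPM in M1 medium and 133.0 to 139.6 CPM in control. Within that list TNFAIP3, RELB and NFKBIA were lower with IKK16 than with DMSO (log2 fold changes -0.96, -0.51 and -0.16), BIRC3 was higher (0.33), and NFKB2 did not pass (0.06).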

How the data were processed

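Polyadenylated RNA of 18 LNCaP libraries in 6 groups of 3 was sequenced as 150-base read pairs, per the labels. The table the authors deposited holds expected counts for RefSeq transcripts, as multiples of 0.5 that were not normalised. The submitters' processing notes name hg38, Trimmomatic, BWA 0.7.17 and HOMER 4.10; the sources used here do not give their roles, the use of strand or the handling of reads with several matches. Of 70507 transcripts 69824 were named with the RefSeq gene table of GRCh38.p14 and 349 with GENCODE 29; the 334 without a name held 0.0883 to 0.1087% of counts and stayed out. Transcripts of a gene share reads, so each gene was represented by its transcript of highest total, and a change of transcript can appear as a change of level. Counts were rounded. Gene counts summed to 24202742 to 33814818 per library, and 3 counts, the limit that a count of 0 allows, are 0.0887 to 0.124 CPM. That floor covers counting error only, since PCR copies are not independent molecules. Even counts outnumbered odd ones for each of the 10 genes, and whether both reads of a pair were counted was not tested. If they were, the counts, the floor and the filter overstate the number of independent molecules.

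edgeR 4.0.16 in R 4.3.3 (TMM, filterByExpr with a minimum of 10 counts, about 0.346 CPM) kept 17037 genes and left out 11063. The quasi-likelihood test used all libraries with 1 mean per group in 10 comparisons, two-sided, with Benjamini-Hochberg adjustment over all genes tested and a threshold of 0.05. The script was tested on simulated data. Replicate pairs differed by more than the sampling noise of independent counts (chi-square per gene 2.71 to 21.6). The genes and lists were chosen with earlier results of these data known. All 10 genes are named; of the other pathway genes, up to 2 per direction and role with the largest change and at least 1 CPM in either group could be named, and the most abundant where none changed. The likeness of patterns was computed for the receptor, ligand and target with the largest change in M1 medium. Alternatives were DESeq2 1.42.0, median-of-ratios scaling, no filter, a filter of 1 CPM in 3 libraries, only the 2 groups compared, the longest transcript, a block for the replicate number, removal of a trend with transcript length (lowess span 0.3), and each library left out. For LNCaP cells, 1 marker gene of the list is not reported here.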

Additional observations from a re-analysis of the deposited data

How the results depend on the processing

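Over the 10 genes and 10 comparisons, 1390 alternative values were computed: 1341 kept their side of the threshold, 30 lost the call and 19 gained one. The sign of a value was compared only where it was called, and 0 of those reversed; uncalled values near 0, such as HEY1 in M1 medium against control (log2 fold change -0.21 to 0.20 over the alternatives), did change sign. M1 medium against control kept 7 or 8 called genes of the 10 in every alternative, and the calls of NOTCH1, JAG1, JAG2, DLL1, DLL4, HES1 and HES4 there held in all. The numbers of called genes that moved by over 1.5 times were small ones, and the cause was not tested. For M2 medium against control the number among the 10 genes was 1, and it was 0 with the longest transcript, with only the 2 groups compared, with the length trend removed and with the replicate number as a block; leaving out single libraries gave 0 to 3. For M0 medium against control it was 0, and 0 to 1 with single libraries left out. For DMSO against M1 medium it was 1, and 2 without a filter, with only the 2 groups compared and with the length trend removed, and 0 to 2 with single libraries left out. For IKK16 against DMSO it was 3, and 5 with only the 2 groups compared (1 higher and 4 lower), NOTCH2 and HES4 being added. Among the 41 other pathway genes, M0 medium against control had 3 calls, and 6 with DESeq2, 5 without a filter, 0 with only the 2 groups compared, 1 with the length trend removed and 0 to 6 with single libraries left out. M2 medium against control had 2, and 4 with DESeq2, 0 with only the 2 groups compared and 0 to 6 with single libraries left out. DMSO against M1 medium had 4, and 2 with median-of-ratios scaling, 2 without a filter, 8 with only the 2 groups compared, 2 with the replicate block and 0 to 5 with single libraries left out. Same-numbered libraries did not deviate together: the correlation of their deviations from the group means was -0.149 to 0.152 over 30 pairs, 2 of them over 0.1, and 6 of 30 correlated best with their own number, so the numbers were not taken as pairs. The replicate block was 1 of 5 alternatives that brought NOTCH2 past the threshold between M1 and M2 medium (log2 fold change 0.36 with it and 0.33 to 0.48 over the 5). Depth limits DLL4 outside M1 medium, at 22 to 27 counts per group, and HEY1, at 76 to 122 counts per group.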
